A study of Mus musculus with 12 samples.

Results

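The interleukin 1 family and its receptors were followed in MC38 tumors as 10 genes: the cytokines Il1a, Il1b, Il18 and Il33, the antagonists and decoys Il1rn, Il18bp and Il1r2, and the receptor chains Il1r1, Il1rap and Il1rl1. They were taken by symbol from a table of 23282 lines, each of the 10 matched a single line, and 9 passed the filter on low counts that left 13464 genes for testing. Il1a did not pass, and its counts are given below without a test. Across the 12 tumors Il18 and Il18bp had their highest levels in the group that received both treatments, while the highest mean of Il33 was in the control group. No difference in any of the 9 passed an adjusted p of 0.05 in the edgeR fit, although for the combination against the controls DESeq2 called 3 of the 9 (14.8% of all genes) and limma voom 3 (20.2% of all genes). In edgeR 5 had an unadjusted p under 0.05 there, beside 25.3% of all genes.

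Cytokines of this family act at the start of inflammation. IL-1α and IL-1β bind the receptor IL1R1, which pairs with the accessory chain IL1RAP to signal through MyD88 and NF-κB. IL-1 receptor antagonist (Il1rn) occupies the same receptor without signaling, and IL1R2 binds IL-1 without passing a signal on. IL-18 and IL-1β are cut to their active form by caspase-1 in inflammasomes. IL-18 drives interferon gamma production in T and NK cells and is held by the secreted binding protein IL-18BP. IL-33 is a nuclear alarmin of stromal and epithelial cells that acts on ST2, the product of Il1rl1, in mast cells, group 2 innate lymphoid cells and regulatory T cells, again with IL1RAP as partner. Because protein processing and secretion control these cytokines, their mRNA is only part of the pathway.

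The tumors grew from MC38 cells, a mouse colon carcinoma line, placed under the flank skin of female wild-type C57BL/6 mice that were 6 weeks old when obtained. Con mice received vehicle (saline with DMSO and Tween 80) and IgG2a. SFIH mice received 50 mg/kg of the sesquiterpene lactone-rich hexane fraction of Inula helenium root each day, which consists mainly of alantolactone and isoalantolactone. PD mice received 200 μg of anti-PD-1 antibody (clone RMP1-14) 2 times a week, and Comb mice received both agents. The question put to these data was how each agent and their combination moved the family, with 3 tumors per group taken on day 19. The labels call the material tumor cells, but RNA came from whole tumor tissue of 1 transplanted line in 1 mouse strain, so host cells are included. The libraries were QuantSeq 3′ mRNA-Seq, whose reads come from transcript ends and whose counts do not grow with gene length. Levels are given as CPM, the counts relative to the library total after TMM scaling. In such bulk RNA, fewer cells of a type and less RNA per cell cannot be told apart.

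Library totals lay between 7870741 and 12261032 counts. The library of Comb replicate 3 stood apart. Its median correlation with the other tumors was 0.683, against 0.915 to 0.967 for the other 11, and its TMM factor was 0.7602, against 0.8838 to 1.1222. The 10 markers of macrophages and monocytes summed to 13552 CPM in this library and to 518 to 3728.7 CPM elsewhere. Its 10 skeletal muscle markers summed to 6801.2 CPM, against 661 in Comb replicate 1, 138 in PD replicate 1 and at most 43.7 in the other 9. The 9 skin markers measured there summed to 460 CPM, against at most 29.7 elsewhere. The ribosomal RNA precursor Rn45s took 17.1% of the counts in PD replicate 2 and 14.1% in Comb replicate 2, against 4.28% to 10.3% in the other 10, and these were also the highest tumors for Il1b and Il1rn. The 6 epithelial markers that a carcinoma line could carry were low. They summed to 2.92 to 22.3 CPM in 11 tumors and to 116 CPM in Comb replicate 3, and Epcam was at 0 counts in 3 tumors. Several differences are therefore given with and without Comb replicate 3, and the part of Rn45s and of these cell type differences in the results was not tested.

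RefSeq promoters (GRCm38.p6) were available for all 10 genes, with 15 entries in all. The 250 bases before the start site were searched on both strands for 4 motifs. These were an NF-κB motif (GGG, any 5 bases, CC), the STAT motif GAS (TTCNNNGAA), the interferon response core (GAAA, any 2 bases, GAAA) and the TATA box (TATAAA). Such matches were also common among all 32851 promoters of the same length. NF-κB letters were present in 45.8%, GAS letters in 7.02%, the interferon core in 2.98% and TATA letters in 12.4%. The promoters below belong to the cytokine gene Il1b and to 4 genes whose log2 levels had r of 0.65 to 0.91 with each other over the 12 tumors. Il1r1 had r of 0.74 to 0.88 with these 4, within the same range, but its sequence is not shown. Each is written 5′ to 3′ on the strand of its gene, over the 250 bases that end just before the start site, with the match to any of the 4 motifs in capitals.

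Il1b, chr2:129371140-129371389, minus strand: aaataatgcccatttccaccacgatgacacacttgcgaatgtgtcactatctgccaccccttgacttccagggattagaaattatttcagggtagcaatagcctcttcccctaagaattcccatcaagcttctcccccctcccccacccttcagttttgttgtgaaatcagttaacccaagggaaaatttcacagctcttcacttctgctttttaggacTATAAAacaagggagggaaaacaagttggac

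Il1rn (entry 1 of 3), chr2:24336610-24336859, plus strand: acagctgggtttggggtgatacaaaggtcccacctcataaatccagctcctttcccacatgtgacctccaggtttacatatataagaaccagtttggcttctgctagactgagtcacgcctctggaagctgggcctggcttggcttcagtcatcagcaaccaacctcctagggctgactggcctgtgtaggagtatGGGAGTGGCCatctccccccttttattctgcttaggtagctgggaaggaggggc

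Il1r2, chr1:40085843-40086092, plus strand: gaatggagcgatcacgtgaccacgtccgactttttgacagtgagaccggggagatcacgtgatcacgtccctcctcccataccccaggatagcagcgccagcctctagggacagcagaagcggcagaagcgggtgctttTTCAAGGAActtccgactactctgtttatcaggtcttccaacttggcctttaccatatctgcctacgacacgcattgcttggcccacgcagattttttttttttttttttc

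Il18, chr9:50554450-50554699, plus strand: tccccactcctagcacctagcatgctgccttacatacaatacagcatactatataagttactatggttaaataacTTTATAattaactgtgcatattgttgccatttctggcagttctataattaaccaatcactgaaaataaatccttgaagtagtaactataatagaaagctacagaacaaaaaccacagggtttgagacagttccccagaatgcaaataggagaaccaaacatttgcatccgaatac

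Il18bp, chr7:102018233-102018482, minus strand: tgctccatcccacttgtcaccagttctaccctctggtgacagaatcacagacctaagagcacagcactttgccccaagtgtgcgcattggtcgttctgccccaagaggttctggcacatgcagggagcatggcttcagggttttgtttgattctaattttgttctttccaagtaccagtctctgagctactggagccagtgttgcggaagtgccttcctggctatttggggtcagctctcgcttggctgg

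The capitals in Il1b are a TATA box at base -31, a spacing at which such boxes usually lie. Il1a had the same letters at base -32, and Il33 had them at base -29 of entry 2 and at base -203 of entry 1. In Il18 the capitals are TATA letters on the opposite strand at base -175. The capitals in Il1rn are NF-κB letters at base -54, and its entry 3 had them at base -51. In Il1r2 they are GAS letters at base -111. Il18bp held none of the 4 motifs in this window, and neither did Il1rl1. The promoter of Il1rap held 6 overlapping or neighboring matches to the NF-κB letters, and entry 2 of Il1r1 held 1, at base -232. None of the 15 entries held the interferon core.

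The first of the cytokines, Il1a, was hardly detected. This gene encodes IL-1α, an alarmin released by damaged cells. Con tumors had 1, 9 and 0 counts, SFIH tumors 0, 0 and 4, PD tumors 3, 2 and 0, and Comb tumors 1, 4 and 20. Comb replicate 3 thus held 20 of the 44 counts, and 8 of the 12 tumors had 3 counts or fewer, the floor used here. The lncRNA Gm14023 overlaps Il1a in the annotation and had 40 counts over the 12 tumors. Differences of Il1a between the groups were not detectable at this depth.

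Il1b encodes IL-1β, the main inflammasome-dependent member of the family in myeloid cells. Its levels were 48.7, 17.4 and 34.2 CPM in Con, 41.5, 27.7 and 27.2 CPM in SFIH, 36.3, 75.2 and 27.5 CPM in PD, and 47.7, 64.8 and 26.7 CPM in Comb. The 4 groups overlapped, and the highest tumor of PD and that of Comb lay above the other tumors. The means in CPM were 46.4 ± 19.1 (SD, n = 3) for Comb, 46.3 ± 25.4 for PD, 32.1 ± 8.12 for SFIH and 33.4 ± 15.7 for Con. Il1b was higher by 0.50 ± 0.33 on the log2 scale (fitted value ± SE) in tumors with anti-PD-1 than in those without, with an adjusted p of 0.447. SFIH differed from Con by -0.056 ± 0.46, with an adjusted p of 1. Comb replicate 3 was here the lowest tumor of its group, and Comb against Con was 0.48 ± 0.46 with it (adjusted p = 0.511) and 0.75 ± 0.44 without it (adjusted p = 0.387).

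Il18 had its 3 highest values among the tumors given anti-PD-1. It was measured at 6.31, 3.51 and 7.31 CPM in Con, at 6.47, 6.68 and 6.14 CPM in SFIH, at 6.19, 11.3 and 9.19 CPM in PD, and at 8.54, 17.4 and 41.8 CPM in Comb. All 3 Comb tumors lay above all 6 tumors of Con and SFIH, and Comb replicate 1 lay within the range of PD. The mean was 22.6 ± 17.2 CPM in Comb, against 5.71 ± 1.97 in Con, 6.43 ± 0.27 in SFIH and 8.89 ± 2.56 in PD. The fitted log2 difference from Con was 1.98 ± 0.51, with an adjusted p of 0.0686. Against SFIH it was 1.81 ± 0.51 (adjusted p = 0.128), and against PD 1.35 ± 0.50 (adjusted p = 0.244). Without Comb replicate 3 the difference from Con was 1.17 ± 0.38 (adjusted p = 0.147), that from SFIH was 1.004 ± 0.38 (adjusted p = 0.404) and that from PD was 0.54 ± 0.38 (adjusted p = 0.682). The order of the group means did not change on leaving this tumor out. In the annotation the coding genes Bco2 and Tex12 overlap Il18, and they had 87 and 42 counts over the 12 tumors beside 1248 of Il18.

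Il33, released by injured stromal and epithelial cells, spread widely within the groups. The values were 48.1, 172 and 65.1 CPM in Con, 9.45, 65.6 and 97.8 CPM in SFIH, 10.4, 51.1 and 27.9 CPM in PD, and 36.5, 40.1 and 21.1 CPM in Comb. All 3 Comb tumors lay below all 3 Con tumors, whereas SFIH and PD each overlapped both. From high to low, the means were 94.9 ± 66.9 CPM in Con, 57.6 ± 44.7 in SFIH, 32.6 ± 10.1 in Comb and 29.8 ± 20.5 in PD, and neighbors in this order differed by less than their spread. Relative to Con, the log2 difference was -1.67 ± 0.79 in PD (adjusted p = 1) and -1.54 ± 0.78 in Comb (adjusted p = 0.24). With anti-PD-1 against without, it was -1.25 ± 0.55 (adjusted p = 0.252). Con replicate 2 carried much of the control level. Without it, the difference from Con moved from -0.72 to 0.014 for SFIH, from -1.67 to -0.94 for PD and from -1.54 to -0.80 for Comb.

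Among the antagonists, Il1rn was measured at 25.2, 17.7 and 15.5 CPM in Con, 16.8, 12.7 and 21 CPM in SFIH, 28.4, 64.9 and 21.6 CPM in PD, and 23.8, 51.4 and 40.7 CPM in Comb. Every Comb tumor lay above every SFIH tumor, and Con overlapped with both PD and Comb. The means were 19.5 ± 5.11 CPM in Con and 16.8 ± 4.17 CPM in SFIH, and 38.3 ± 23.3 in PD and 38.6 ± 13.9 CPM in Comb. Il1rn was the only member with an unadjusted p under 0.05 for PD against Con (0.97 ± 0.42, adjusted p = 1). Without PD replicate 2, its highest tumor, this difference was 0.36 ± 0.36 and its unadjusted p was no longer under 0.05. Tumors with anti-PD-1 were higher by 1.09 ± 0.30 than those without (adjusted p = 0.0986). Comb against PD gave 0.016 ± 0.42 (adjusted p = 0.988). The anti-PD-1 difference was 1.06 ± 0.30 without Comb replicate 3 (adjusted p = 0.0991) and 0.77 ± 0.24 without PD replicate 2 (adjusted p = 0.213).

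Il18bp was the most abundant of the 3 antagonists and decoys. It reached 25.3, 19.9 and 31.2 CPM in Con, 28.1, 26.3 and 21.7 CPM in SFIH, 34.5, 68.3 and 42.2 CPM in PD, and 25.7, 76.5 and 97.3 CPM in Comb. All PD tumors lay above all Con tumors, while Comb replicate 1 stayed within the Con range and the other 2 Comb tumors were the highest of the series. The means were 66.5 ± 36.8 for Comb, 48.3 ± 17.7 for PD, 25.3 ± 3.3 for SFIH and 25.5 ± 5.68 for Con. The log2 difference was 1.16 ± 0.30 for anti-PD-1 against none (adjusted p = 0.098), 0.92 ± 0.42 for PD against Con (adjusted p = 1) and 1.39 ± 0.42 for Comb against Con (adjusted p = 0.0846). PD against Con was 0.59 ± 0.44 without PD replicate 2. SFIH against Con was -0.0072 ± 0.42 (adjusted p = 1). Without Comb replicate 3 the anti-PD-1 difference was 0.96 ± 0.27 (adjusted p = 0.0943).

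Il1r2, the decoy receptor of neutrophils, monocytes and regulatory T cells, was the least abundant of the 9. Its values were 4.47, 2.61 and 4.99 CPM in Con, 5.67, 3.64 and 4.27 CPM in SFIH, 5.34, 8.3 and 3.2 CPM in PD, and 5.92, 8.74 and 22.2 CPM in Comb. The 3 Comb tumors exceeded all 6 of Con and SFIH, the nearest being 5.92 CPM in Comb and 5.67 CPM in SFIH. Comb differed from Con by 1.60 ± 0.53 (adjusted p = 0.0981), and by 0.86 ± 0.43 without Comb replicate 3 (adjusted p = 0.307). Means were 4.02 ± 1.25, 4.53 ± 1.04, 5.61 ± 2.56 and 12.3 ± 8.68 CPM in Con, SFIH, PD and Comb.

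The signaling receptor Il1r1 also had its highest mean in Comb. It was at 11.3, 8.62 and 7.49 CPM in Con, 6.4, 6.9 and 8.75 CPM in SFIH, 7.58, 16.7 and 9.09 CPM in PD, and 10.4, 14.5 and 40.4 CPM in Comb. Comb lay above SFIH without overlap, and overlapped Con and PD. Comb against SFIH gave 1.57 ± 0.49 (adjusted p = 0.139) with all tumors and 0.76 ± 0.34 (adjusted p = 0.457) without Comb replicate 3. Against Con the difference moved from 1.25 ± 0.48 (adjusted p = 0.143) to 0.44 ± 0.34 (adjusted p = 0.523) when that tumor was left out. The group means were 21.7 ± 16.3 CPM (Comb), 11.1 ± 4.9 (PD), 7.35 ± 1.24 (SFIH) and 9.14 ± 1.96 (Con).

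Il1rap, the accessory chain shared by the IL-1 and IL-33 receptors, had its lowest mean in Comb. Con tumors had 11.1, 12.7 and 8.03 CPM, SFIH tumors 8.79, 7.57 and 6.87 CPM, PD tumors 15.4, 10.9 and 11.8 CPM, and Comb tumors 7.67, 8.62 and 1.44 CPM. The means were 5.91 ± 3.9 for Comb, 12.7 ± 2.37 for PD, 7.75 ± 0.97 for SFIH and 10.6 ± 2.39 for Con. The lowest tumor was Comb replicate 3, with 12 counts, but all Comb tumors were below all PD tumors also without it. The log2 difference of Comb from PD was -1.10 ± 0.50 (adjusted p = 0.276), and -0.64 ± 0.27 (adjusted p = 0.539) without Comb replicate 3. SFIH against Con gave -0.45 ± 0.49 (adjusted p = 1), in the same direction. The lncRNA Gm20319, which overlaps Il1rap, had 120 counts over all tumors beside the 1141 of Il1rap.

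Il1rl1, which encodes the IL-33 receptor ST2, was the most abundant member. The 3 Con tumors were close together at 70.5, 65.4 and 65.5 CPM. SFIH tumors had 75.1, 69.3 and 95.7 CPM, PD tumors 99.3, 135 and 55 CPM, and Comb tumors 118, 103 and 37.9 CPM. Both groups with anti-PD-1 thus reached above and below Con. The means were 86.4 ± 42.8 for Comb, 96.3 ± 39.9 for PD, 80 ± 13.9 for SFIH and 67.1 ± 2.92 for Con. Comb against Con was 0.37 ± 0.39 with all tumors (adjusted p = 0.552) and 0.72 ± 0.28 without Comb replicate 3 (adjusted p = 0.203). The gene of the receptor chain that binds IL-33 was measured at a mean of 82.5 CPM and that of the chain that binds IL-1, Il1r1, at 12.3 CPM over the 12 tumors. Counts were per gene, so transcripts from the 2 promoter entries of Il1rl1 were not told apart.

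**Figure D1:**
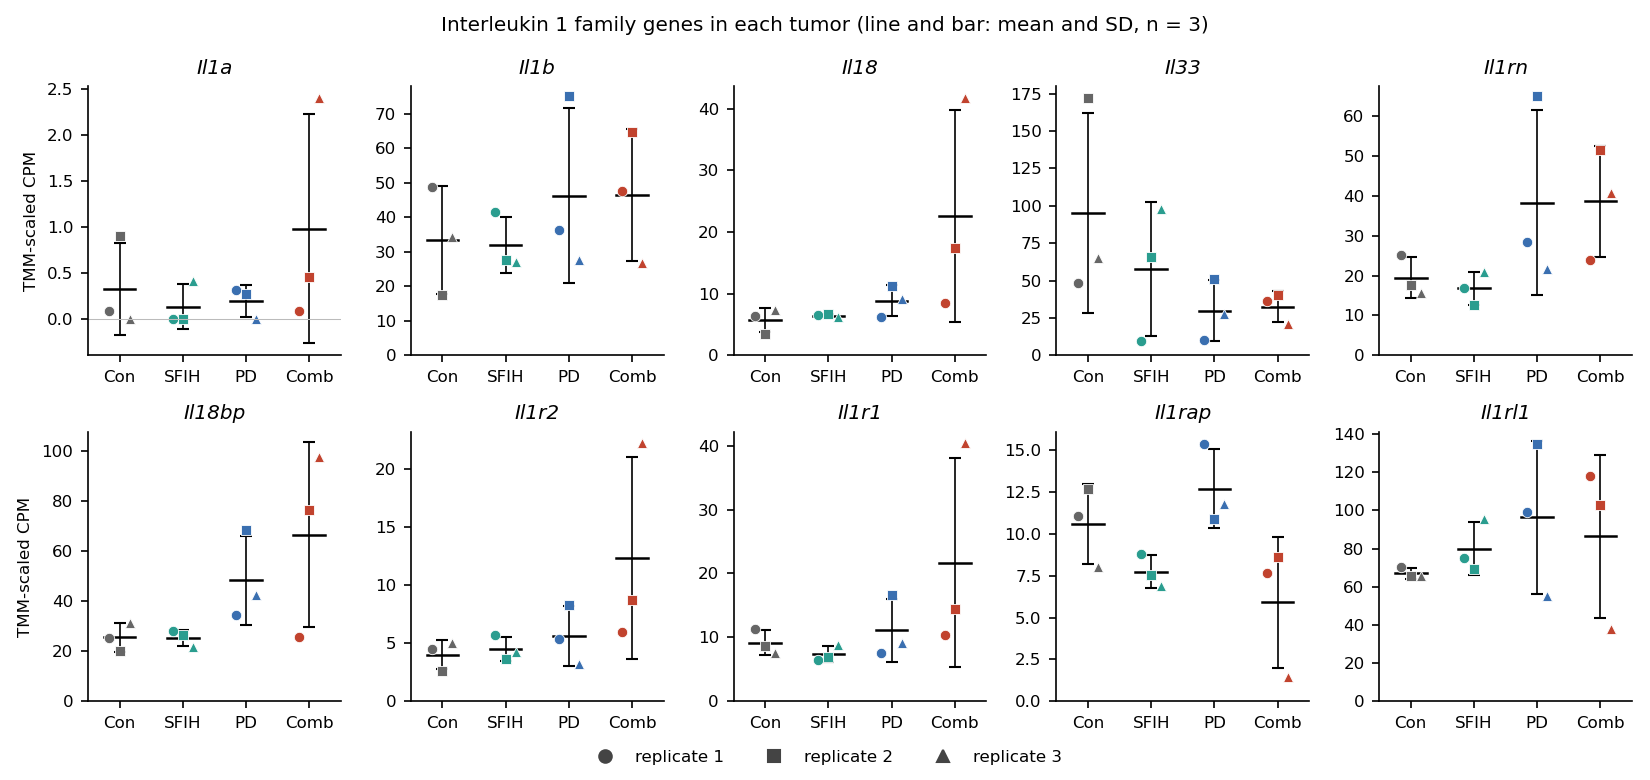
TMM-scaled CPM (vertical axes, linear) of the 10 genes in each tumor, by group (horizontal axes, n = 3 tumors); symbols mark the replicate number, and line and bar give the mean and SD. Comb replicate 3 (triangle) is the highest tumor of its group for Il1a, Il18, Il18bp, Il1r2 and Il1r1 and the lowest for Il1b, Il33, Il1rap and Il1rl1.

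The question whether SFIH alone moved the family was addressed by SFIH against Con. None of the 9 genes passed the adjusted p, as for 0% of all genes tested, and none had an unadjusted p under 0.05, against 2.25% of all genes. No member separated the groups without overlap, which 17.4% of all genes did. The members' median log2 difference was -0.056, beside 0.021 over all genes, and 3 of the 9 were higher. Leaving out 1 tumor at a time, this median ran from -0.22 to 0.052. On library totals in place of TMM factors, Il1rl1 was higher in SFIH without overlap.

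For anti-PD-1 alone, PD against Con, 0% of all genes and none of the members passed. Unadjusted, the 1 member was Il1rn, against 3.99% of all genes, and 8 of the 9 were higher in PD with a median of 0.47, beside 0.012 over all genes. The exception was Il33. Without PD replicate 2, 6 of the 9 were higher with a median of 0.20, beside 0.0088 over all genes, and Il33 was the only member with an unadjusted p under 0.05, beside 3.94% of all genes. Without overlap, only Il18bp separated the groups, against 18.8% of all genes, and on library totals it was Il33 instead, lower in PD. Without Comb replicate 3 in the fit, Il1rn, Il18bp and Il33 had an unadjusted p under 0.05, against 10.7% of all genes.

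Comb against Con held the largest number of unadjusted differences of the comparisons of a treated group with Con. Adjusted, none passed in edgeR, again with 0% of all genes. Unadjusted, 5 of the 9 did, all higher in Comb: Il1rn, Il1r1, Il1r2, Il18 and Il18bp. Over all genes the share was 25.3%. Il1r2 and Il18 were higher and Il33 was lower without overlap between the groups, 3 of the 9 beside 24.7% of all genes. On library totals Il1rap was lower without overlap too. The members' median was 0.99, beside -0.033 over all genes. DESeq2 called Il1r2, Il18 and Il18bp, with 14.8% of all genes called, and limma voom with sample quality weights called Il1rn, Il18 and Il18bp, with 20.2% of all genes called. In that fit the weights of Comb replicates 1, 2 and 3 were 0.286, 1.97 and 0.0596, so that its Comb values rest mainly on Comb replicate 2. Without Comb replicate 1, edgeR called Il1r1, Il1r2, Il18 and Il18bp, beside 28.5% of all genes. Without Comb replicate 3 it called none, and Il18, Il18bp and Il1rl1 had an unadjusted p under 0.05, beside 18.8% of all genes.

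The combination was then compared with each single agent. Against PD, no member passed adjustment (0% of all genes). Il18, higher in Comb, and Il1rap, lower in Comb, had an unadjusted p under 0.05, beside 18% of all genes. Only Il1rap separated the 2 groups, beside 14.3% of all genes, and it did so on library totals too. Without Comb replicate 1, Il18 was called (15.2% of all genes called), and without Comb replicate 3, Il1rap alone had an unadjusted p under 0.05 (9.02% of all genes). Against SFIH, 0% of all genes and no member passed, while Il1rn, Il1r1, Il1r2, Il18 and Il18bp had an unadjusted p under 0.05, beside 19% of all genes. Of these, all but Il18bp were higher in every Comb tumor than in every SFIH tumor, 4 of the 9 members beside 16.2% of all genes, and on library totals Il1r2 overlapped. DESeq2 called Il1r1, Il18 and Il18bp (8.59% of all genes), and voom called these and Il1rn (15% of all genes). Without Comb replicate 1, edgeR called all 5 (22.5% of all genes). Without Comb replicate 3 none was called, and Il1rn, Il1r1, Il18 and Il18bp had an unadjusted p under 0.05, beside 10.8% of all genes.

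With the 6 tumors given anti-PD-1 set against the 6 without, averaged over SFIH, the fit used all tumors for each gene. No member passed the adjusted p and 0% of all genes did. An unadjusted p under 0.05 was found for 6 of the 9, beside 18.7% of all genes: Il1rn, Il1r1, Il1r2, Il18 and Il18bp were higher and Il33 was lower. The median was 0.92, beside -0.027 over all genes, and 0.58 without Comb replicate 3, beside -0.0091. No member separated the 6 tumors from the other 6, which 1.93% of all genes did. DESeq2 called Il1rn, Il18 and Il18bp (9.28% of all genes), as did voom (20.7% of all genes). Without Comb replicate 1, edgeR called Il1rn, Il1r1, Il1r2, Il18 and Il18bp (17.1% of all genes). Without Comb replicate 3, none was called, and Il1rn, Il1r1, Il18, Il18bp and Il1rl1 had an unadjusted p under 0.05 (19.5% of all genes). For the interaction of the 2 agents, 0% of all genes and no member passed, and no member had an unadjusted p under 0.05, which 2.55% of all genes had. The largest interaction among the members was that of Il1r1, at 1.29 ± 0.68 (adjusted p = 0.894), and it ran from 0.48 without Comb replicate 3 to 1.68 without PD replicate 2 when 1 tumor was left out. Its unadjusted p was under 0.05 without PD replicate 2 (4.57% of all genes), as it was for Il1r1 and Il18 without Comb replicate 1 (17.2% of all genes) and for Il1rn and Il1r1 with voom (13.5% of all genes). The comparisons share their Con or Comb tumors, so that they are not separate evidence for a gene.

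**Figure D2:**
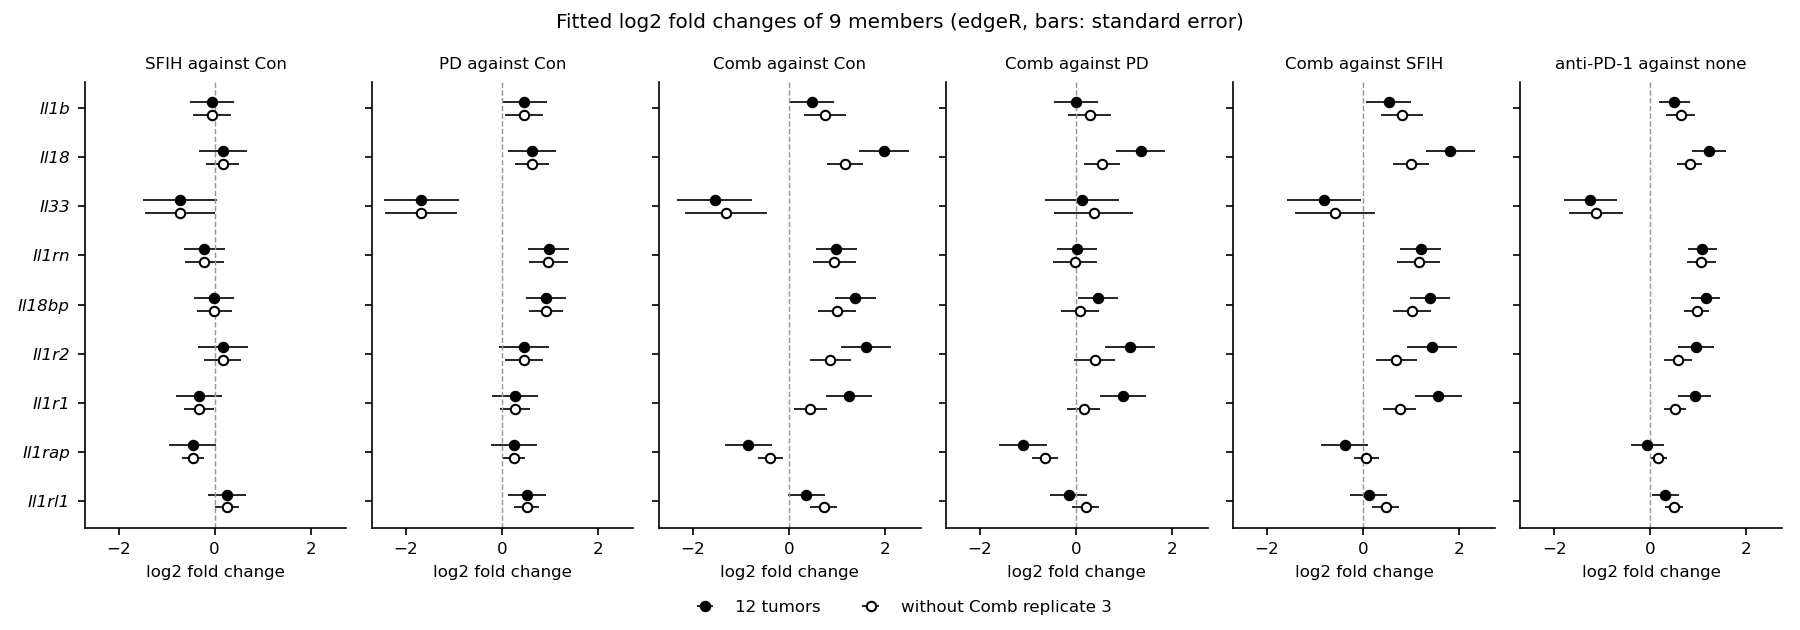
Fitted log2 fold changes (horizontal axes) of the 9 tested genes in 6 comparisons, with bars for the standard error; filled points use all 12 tumors and open points leave out Comb replicate 3. Il18 against Con goes from 1.98 to 1.17 and Il1r1 from 1.25 to 0.44 in Comb, while Il1rn in Comb goes from 0.99 to 0.95.

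Since IL-1 and its antagonist, and IL-18 and its binding protein, act by their balance, the ratio of their counts was taken within each tumor, with 1 count added to both. Such a ratio does not depend on the scaling of the library. On the log2 scale, the ratio of Il18bp to Il18 was 1.99, 2.47 and 2.08 in Con tumors and 2.1, 1.96 and 1.8 in SFIH tumors. With anti-PD-1 it was 2.46, 2.58 and 2.19 (PD) and 1.58, 2.13 and 1.22 (Comb). Il18bp thus had 4.53 counts per count of Il18 in Con (geometric mean), 3.88 in SFIH, 5.31 in PD and 3.12 in Comb. Every Comb tumor was below every PD tumor. Averaged over tumors with and without anti-PD-1, the ratio differed with SFIH by -0.49 on the log2 scale, with p = 0.02 in a two-sided exact permutation test over 400 arrangements and 0.2 after adjustment over the 10 tests of ratios. The difference was -0.22 without anti-PD-1 and -0.77 with it, and between -0.62 and -0.39 when any 1 tumor was left out. The smallest p this test can give is 0.005, so that 1 ratio alone could not get below 0.05 after adjustment over the 10.

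The ratio of Il1rn to Il1b was nearly the same in all 3 PD tumors (-0.35, -0.21 and -0.35). It ran from -1.13 to 0.025 in Con, from -1.3 to -0.37 in SFIH and from -1 to 0.61 in Comb, and it was higher by 0.53 with anti-PD-1 (exact permutation p = 0.145, adjusted p = 0.483). Il1b exceeded its antagonist in 10 of the 12 tumors. The log2 ratio of Il1rl1 to Il33 was 1.87 ± 1.21 in PD, 1.3 ± 0.43 in Comb, 1.01 ± 1.71 in SFIH and -0.28 ± 1 in Con. The anti-PD-1 difference of 1.22 had an exact permutation p of 0.125 (adjusted p = 0.483). For the decoy and signaling receptors, Il1r2 to Il1r1, the ratio was higher by 0.35 with SFIH (exact permutation p = 0.195, adjusted p = 0.488) and by 0.054 with anti-PD-1 (exact permutation p = 0.82). Il1r2 and Il1r1 thus kept a log2 ratio of -0.80, -0.72 and -0.86 in the 3 Comb tumors, although both were far higher in Comb replicate 3. The ratio of Il1rn to Il1a rests on 44 counts of Il1a and did not pass the test for either agent (exact permutation p = 0.88 and 0.74).

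**Figure D3:**
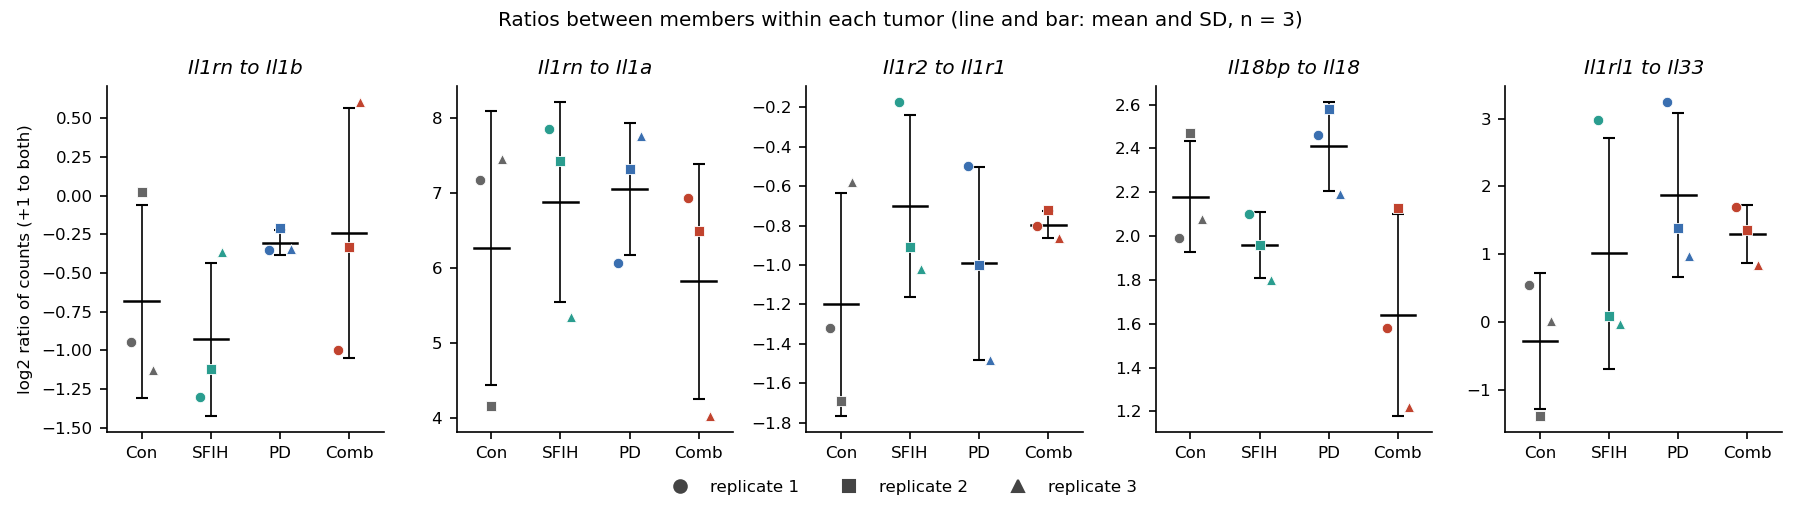
Log2 ratios of counts (vertical axes, 1 count added to both terms) of 5 pairs of genes in each tumor, by group, with mean and SD (n = 3). The 3 Comb tumors have a ratio of Il18bp to Il18 of at most 2.13, below the 3 PD tumors, and the 3 PD tumors lie between -0.35 and -0.21 for Il1rn to Il1b.

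Of the rest of the family, 11 further ligands and receptors, all were found in the table but only Il18r1, Il18rap and Sigirr were abundant enough to test, and the 4 IL-36 genes were listed under older symbols. None passed the adjusted p. Il18r1, the ligand-binding chain of the IL-18 receptor, was at 0.877, 0.903 and 0.892 CPM in Con, 0.945, 0.668 and 1.25 CPM in SFIH, 3.42, 6.53 and 3.3 CPM in PD, and 2.81, 7.36 and 11.1 CPM in Comb. All 6 tumors given anti-PD-1 lay above all 6 without it, as 1.93% of all genes separated in either direction. The difference was 2.59 ± 0.39 (adjusted p = 0.0973), and 2.35 ± 0.355 without Comb replicate 3 (adjusted p = 0.0524). Its partner Il18rap was at 15.1 to 40.1 CPM with no such order (-0.11 ± 0.21, adjusted p = 0.806, and 0.041 ± 0.13 without Comb replicate 3). Il18r1 lies beside Il1rl1 in the chain of receptor genes Il1r2, Il1r1, Il1rl2, Il1rl1 and Il18r1 on chromosome 1, and Il1rl1, its neighbor, overlapped between the same tumors.

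In the machinery that cuts IL-1β and IL-18, 15 of 18 genes were tested. With anti-PD-1 against without, 13 were higher and 2 lower, with a median of 0.24 beside -0.027 over all genes, and none passed the adjusted p. The 4 with the smallest unadjusted p were Cma1 (3.42 ± 0.72, adjusted p = 0.0973), Gsdmd (1.34 ± 0.36, adjusted p = 0.0984), Mefv (1.4 ± 0.43, adjusted p = 0.118) and Pycard (1.22 ± 0.44, adjusted p = 0.169). These differences without Comb replicate 3 were 2.4 ± 0.45 for Cma1, 0.92 ± 0.25 for Gsdmd, 1.32 ± 0.435 for Mefv and 0.67 ± 0.31 for Pycard, and the median of the list was 0.17, beside -0.0091 over all genes. Gsdmd forms the pore through which these cytokines leave the cell and Pycard (ASC) builds the inflammasome. Gsdmd was at 6.42 to 9.65 CPM in Con and SFIH, at 10.9 to 17.8 CPM in PD and at 8.74, 24.4 and 56.3 CPM in Comb. Cma1 is a mast cell chymase, and it reached 214 CPM in Comb replicate 3, where the 8 mast cell markers, Cma1 among them, summed to 1380.6 CPM against 16.6 to 225 elsewhere. Casp4, chosen after its values were seen, was lower in all 6 tumors with anti-PD-1 (44.8 to 54.8 CPM) than in all 6 without (55.2 to 61.7 CPM), on library totals too, as 1.93% of all genes separated in either direction. Its difference was -0.25 ± 0.10 (adjusted p = 0.213). Casp1, named for its role and outside the rule for naming genes, was at 113 to 160 CPM in 11 tumors and 231 CPM in Comb replicate 3 (Comb against Con 0.37 ± 0.20, adjusted p = 0.264, and 0.165 ± 0.16 without that tumor).

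All 19 genes of the shared signaling route were tested, with 9 higher and 10 lower with anti-PD-1, and a median of -0.019 beside -0.027 over all genes. None passed the adjusted p. Myd88, the adaptor of all these receptors, was at 49.5, 54.3 and 70.8 CPM in Con, 70, 65.9 and 60.8 CPM in SFIH, 88.8, 76.3 and 71.1 CPM in PD and 92.6, 87.7 and 121 CPM in Comb. Every tumor with anti-PD-1 was thus above every tumor without it, as for 1.93% of all genes in either direction, but on library totals the tumors overlapped (71.3 to 94.5 CPM with and 51.5 to 79.2 CPM without). The difference was 0.53 ± 0.14 (adjusted p = 0.098), and 0.45 ± 0.11 without Comb replicate 3. Irak3, an inhibitor of the route, was at 26.6 CPM in Comb replicate 3 and at 1.49 to 8.85 CPM elsewhere (1.73 ± 0.495 for anti-PD-1, adjusted p = 0.104, and 1.16 ± 0.38 without Comb replicate 3, adjusted p = 0.129). Rela, the NF-κB subunit, was lower in all SFIH tumors (55.5, 58.3 and 63.7 CPM) than in all Con tumors (88.7, 73.6 and 79.9 CPM), a separation that 17.4% of all genes showed, with -0.45 ± 0.20 and an adjusted p of 1. All PD tumors (67.6, 67.7 and 65.5 CPM) and all Comb tumors (71.6, 49.4 and 41 CPM) were below Con too. Such separations from Con were shown by 18.8% and 24.7% of all genes. The difference was -0.27 ± 0.20 in PD and -0.58 ± 0.20 in Comb (adjusted p = 0.112). Without Comb replicate 3, that of Comb was -0.41 ± 0.16.

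Of 24 genes that IL-1 induces through NF-κB, 21 were tested, 14 were higher and 7 lower with anti-PD-1 (median 0.29, beside -0.027), and none passed. The median without Comb replicate 3 was 0.15, beside -0.0091. Lcn2, which encodes a siderophore-binding protein, was lower in all 6 tumors with anti-PD-1 (0.999 to 2.18 CPM) than in all 6 without (2.76 to 6.14 CPM), beside 1.93% of all genes that separated, with a difference of -1.32 ± 0.30 (adjusted p = 0.098). The matrix protease Mmp3 was at 227 and 245 CPM in Comb replicates 2 and 3 and at 3.68 to 29.1 CPM in the other 10 (2.23 ± 0.57, adjusted p = 0.098, and 2.02 ± 0.55 without Comb replicate 3). The chemokine Ccl7 was at 57.8, 80.7 and 82.6 CPM in Con and at 173, 131 and 106 CPM in SFIH, without overlap, as for 17.4% of all genes (0.89 ± 0.28, adjusted p = 1). It was likewise higher in Comb (176, 123 and 224 CPM) than in PD (68.4, 82.5 and 51 CPM), groups that 14.3% of all genes separated. Of the 9 genes downstream of IL-18 and IL-33, 5 were tested. With anti-PD-1, 4 were higher and 1 lower, with a median of 2.36 beside -0.027 over all genes, and none passed the adjusted p. With Comb replicate 3 left out, 3 were higher and 2 lower, with a median of 1.87. Ifng, the target of IL-18, was at 0.201 to 2.11 CPM in Con and SFIH, at 1.81, 5.98 and 1.9 CPM in PD and at 1.36, 10.6 and 11 CPM in Comb (2.36 ± 0.63 for anti-PD-1, adjusted p = 0.098, and 2.17 ± 0.63 without Comb replicate 3). The growth factor amphiregulin, Areg, differed by -1.14 ± 0.31 with anti-PD-1 (adjusted p = 0.0986). The chemokines Ccl24 and Ccl17 were at 322 and 25.2 CPM in Comb replicate 3 and at most at 9.43 and 4.37 CPM elsewhere. Their differences were 5.14 ± 1.5 (adjusted p = 0.106) and 2.91 ± 0.91 (adjusted p = 0.122), and 2.96 ± 0.895 and 1.87 ± 0.75 without that tumor.

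Across tumors, members differed in the company they kept. Pearson's r of log2 CPM is given as a description over tumors that share a group structure, and again without Comb replicate 3. Il18 and Il18bp had r = 0.91 over 12 and 0.88 over 11 tumors. Il1rn and Il1r1 had 0.74 and 0.90, and Il1b and Il1r2 had 0.38 and 0.93. Il33 had r between -0.416 and 0.102 with the other members over 12 tumors and between -0.387 and 0.217 over 11, lowest with Il1r2 in both sets. Il1rap had -0.78 with Il18 over 12 tumors and -0.23 over 11, so that this relation rests on Comb replicate 3.

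**Figure D4:**
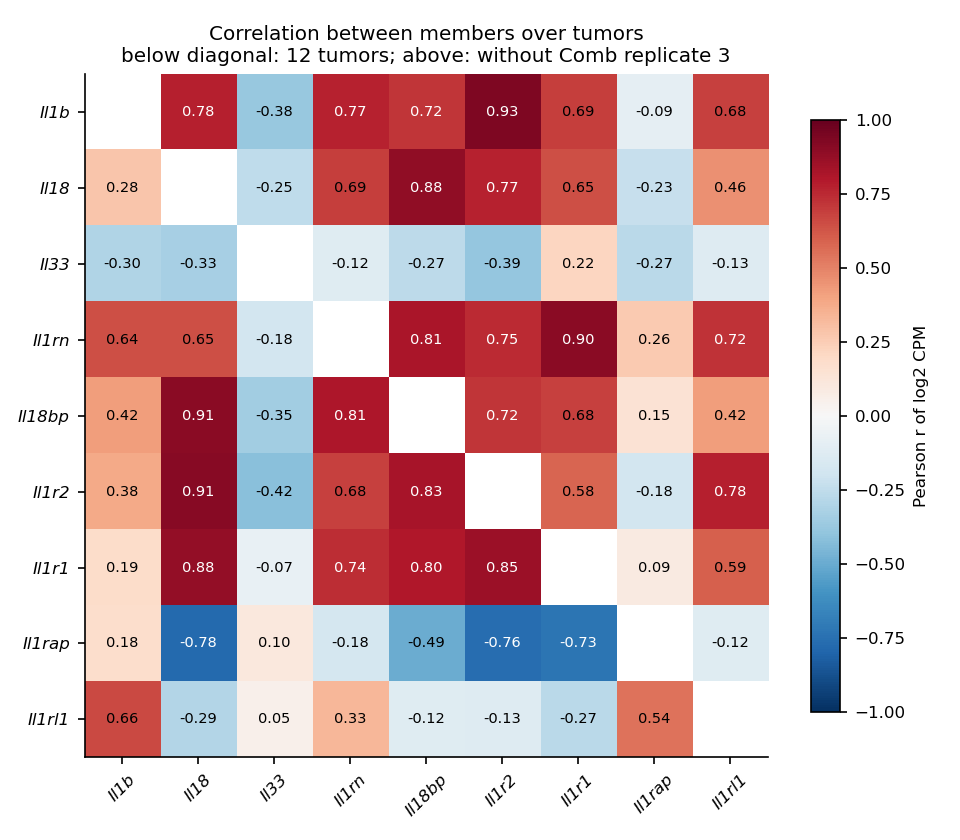
Pearson's r of log2 CPM between the 9 tested genes, over 12 tumors below the diagonal and over 11 tumors, without Comb replicate 3, above it. The r of Il18 with Il18bp is 0.91 and 0.88, while that of Il1rap with Il18 goes from -0.78 to -0.23.

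The levels were also set beside the summed markers of cell types. Of 11 lists, Il18 had its highest r with the 10 markers of macrophages and monocytes (r = 0.989, and 0.973 without Comb replicate 3). It was also high with mast cells (0.951 and 0.862), T cells (0.941 and 0.867) and endothelial cells (0.923 and 0.912). The macrophage sums were 1273.1 to 13552 CPM for Comb, 985 to 1950.5 for PD, 943 to 1020.2 for SFIH and 518 to 888 for Con. Il18bp had its highest r with 8 T cell markers (r = 0.973 and 0.983), which summed to 34.8 to 332 CPM for Comb tumors, 45.9 to 110 for PD, 25.3 to 39.7 for SFIH and 24.4 to 38.3 for Con. Its r with 5 regulatory T cell markers was 0.964 and 0.943. Among these markers, Foxp3 was at 13.7 to 24.4 CPM over the 12 tumors, with overlapping groups. Il2ra had its lowest value in Comb replicate 3 (3.71 CPM). Tnfrsf18 was at 48.6 CPM in that tumor and at 3.51 to 20.3 CPM elsewhere. Il1rn had r of 0.808 and 0.82 with the regulatory T cell markers and 0.776 and 0.852 with the T cell markers. Comb replicate 1, the lowest Comb tumor for Il18 and Il18bp, was also the lowest of its group for the macrophage and T cell sums, at 1273.1 and 34.8 CPM. Il1r2 had r = 0.928 with the macrophage sum, and the same with the mast cell sum, over 12 tumors and 0.801 with each over 11, and with 10 neutrophil markers it had 0.867 and 0.625. Il1r1 had 0.898 with the macrophage and 0.897 with the neutrophil sum over 12 tumors. Over 11 these were 0.676 and 0.673, below its r with fibroblasts (0.728), regulatory T cells (0.702) and T cells (0.7). The neutrophil sums were 59.8 to 937 CPM for Comb, 17.6 to 99.3 for PD, 47.5 to 49.3 for SFIH and 32.7 to 92.4 for Con. Retnlg alone was at 905 CPM in Comb replicate 3 and 49.3 CPM in Comb replicate 2, against at most 20.3 CPM elsewhere. S100a8 and S100a9 were at 8.39 and 5.39 CPM in Comb replicate 3, below all Con tumors (10.7 to 39.3 and 13 to 41.6 CPM). Csf3r and Ltf were highest there, at 2.4 and 10.5 CPM. The neutrophil sum of that tumor is thus mostly 1 gene, and r without Retnlg was not computed. Il33 had r of -0.069 with 8 fibroblast markers over 12 tumors and 0.117 over 11. Its strongest r among the 11 lists were negative, with skeletal muscle (-0.513 and -0.537) and skin markers (-0.478 and -0.722). The skin sums were at most 29.7 CPM outside Comb replicate 3. The fibroblast sums were 1019.1 to 3556.9 CPM in Con and SFIH and 2953.6 to 22973 CPM in PD and Comb. Il1rl1 had r = -0.281 with the mast cell markers over 12 tumors and 0.633 over 11. The part of cell numbers in the differences between groups was not tested.

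**Figure D5:**
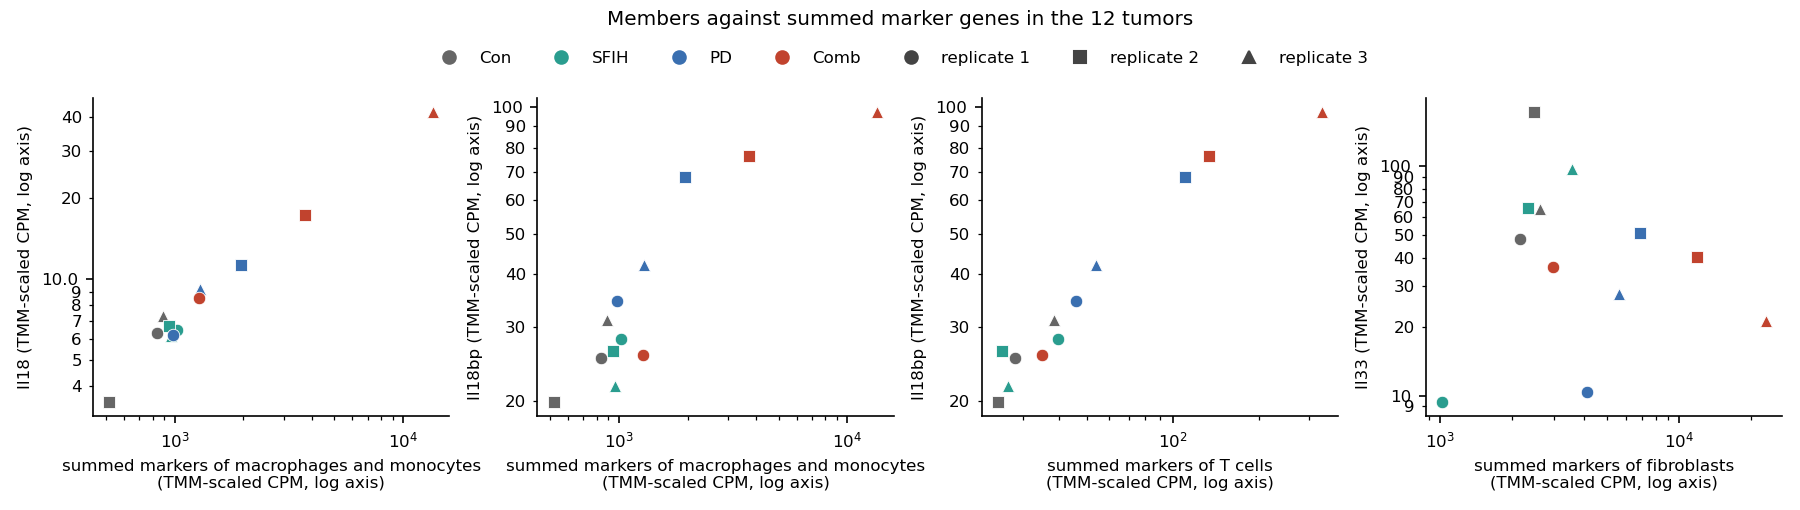
Level of Il18, Il18bp and Il33 (vertical log axes, TMM-scaled CPM) against the summed CPM of cell type markers (horizontal log axes) in the 12 tumors; color gives the group and symbol the replicate number. Il18 and the macrophage sum run together from 518 to 13552 CPM with r = 0.989, whereas Il33 and the fibroblast sum have r = -0.069, and 0.117 without Comb replicate 3.

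For each member, the most similar profile among the other tested genes was looked up, which picks the highest of 13464 values of r. Nearest to Il18 were the aspartic protease Napsa (0.991 over 12 tumors, 0.978 without Comb replicate 3), the lysosomal Gm2a (0.989 and 0.973) and Tnfaip8l2 (0.989 and 0.971). Nearest to Il18bp were the interferon regulatory factor Irf8 (0.985 and 0.977), the CD8 chain Cd8b1 (0.98 and 0.971) and the ectonucleotidase Entpd1 (0.974 and 0.96). Il1r2 was nearest to Arl6ip1 (0.988 and 0.975), the B cell and myeloid kinase Btk (0.977 and 0.94) and Pycard (0.974 and 0.93). Il1r1 was nearest to the granulocyte factor Cebpe (0.974 and 0.916), the complement gene C3 (0.973 and 0.916) and Lilra6 (0.971 and 0.924). Il1rn was nearest to Actb (0.935), Sdpr (0.932) and Cyp2f2 (0.924). For Il1rap these were Bcap29 (0.983 and 0.967), Nup153 (0.98 and 0.88) and Setd2 (0.979 and 0.875), and for Il1rl1 Timm10 (0.951), Ssb (0.927) and Ndufaf4 (0.909). The profiles of Il1b (Gm5424, 0.884, Itpr1, 0.85, and Slco3a1, 0.847) and Il33 (Slc46a1, 0.924, Mbd5, 0.845, and Ccdc91, 0.786) had the lowest values of r with their nearest genes.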

How the data were processed

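RNA of 12 MC38 tumors (3 each of Con, SFIH, PD and Comb) was analysed from a table of raw counts per gene symbol that the authors deposited, made from QuantSeq 3′ libraries read on a NextSeq instrument as single ends. The aligner, counting tool, strand setting, genome build and annotation are not given in the sources used here. Columns were assigned to tumors by name. The 4 groups entered 1 edgeR 4.0.16 fit (R 4.3.3) with filterByExpr, TMM, the quasi-likelihood test, two-sided, and Benjamini-Hochberg adjustment over 13464 genes at 0.05. Levels are CPM computed here from library totals and TMM factors. DESeq2 1.42.0 and limma 3.58.1 (voom) were alternatives. Ratios were compared by stratified exact permutation tests. Python 3.11.15 and matplotlib 3.10.9 made the figures.

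Beside the 10 members, the text names the 3 genes most correlated with each and at most 4 per pathway list, those with the smallest unadjusted p in the comparison described. Casp4, Casp1 and single marker genes were named outside this rule. The members and lists were chosen with earlier results of these data known. Of the list symbols, Trac, Trbc2 and Flg were not matched. In data simulated for Comb against Con, 13464 genes were drawn at a dispersion of 0.158 and 200 of them changed 4-fold. From these, edgeR recovered 71% with 5 false calls, DESeq2 75.5% with 20 and voom 70% with 7. Recovery at the spread of the measured tumors, Comb replicate 3 among them, was not tested. Replicates differed by more than counting noise (chi-square per degree of freedom of 11.4 or more), so none was a copy. Reads carry no molecular identifiers. Mice were injected in 1 flank, but no source used here numbers the mouse behind each library, so p-values measure the spread between these samples. Promoter sequences are from RefSeq.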

Additional observations from a re-analysis of the deposited data

How the results depend on the processing

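No member was called by edgeR in any of the 7 comparisons, and the calls under other choices were as follows. For Comb against Con, DESeq2 called 3 members (14.8% of all genes) and voom 3 (20.2%). For Comb against SFIH, these called 3 (8.59%) and 4 (15%), and for anti-PD-1 against none, 3 (9.28%) and 3 (20.7%). Leaving out 1 tumor at a time, the number called ran from 0 to 4 for Comb against Con, 0 to 1 for Comb against PD, 0 to 5 for Comb against SFIH and 0 to 5 for anti-PD-1 against none. All of these calls came from leaving out Comb replicate 1, where 28.5%, 15.2%, 22.5% and 17.1% of all genes were called in these comparisons. The calls above 0 involved Il1rn, Il1r1, Il1r2, Il18 and Il18bp. The cause was not tested.

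The sign of some differences changed. Without TMM they were Il1b for Comb against PD (-0.10) and for the interaction (-0.064), Il1rn for Comb against PD (-0.15), Il18bp for SFIH against Con (0.0021) and Il1rl1 for Comb against SFIH (-0.085). The same choice moved the median of all genes to -0.286 for Comb against Con, -0.312 for Comb against SFIH, -0.205 for anti-PD-1, -0.199 for the interaction and -0.158 for Comb against PD. Without a filter they were Il1b (-0.017) and Il1rn (-0.022) for Comb against PD, and with the compared groups alone Il1b (-0.0046) for the same comparison. With voom they were Il1r2 for SFIH against Con (-0.00084), Il1rap for Comb against SFIH (0.096) and for anti-PD-1 (0.24), and Il1rl1 for Comb against PD (0.41) and for the interaction (0.22).

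Replicate numbers did not pair the tumors. The deviations of same-numbered tumors had r from -0.235 to 0.361, with 6 of 18 pairs over 0.1. With a replicate block, no member was called, and the sign changed for Il1b in Comb against PD (-0.0013), Il18bp in SFIH against Con (0.013) and Il1rl1 in Comb against SFIH (-0.020).

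Leaving out 1 tumor at a time, these log2 differences passed through 0. For SFIH against Con, the range was -0.38 to 0.31 for Il1b, -0.40 to 0.015 for Il1rn, -0.073 to 0.34 for Il1r2, -0.092 to 0.38 for Il18, -0.17 to 0.16 for Il18bp and -1.34 to 0.014 for Il33. For PD against Con, the range was -0.067 to 0.84 for Il1b and -0.13 to 0.49 for Il1r1. For Comb against PD, the range was -0.32 to 0.54 for Il1b, -0.26 to 0.62 for Il1rn, -0.27 to 0.76 for Il33 and -0.43 to 0.20 for Il1rl1. For interaction of SFIH with anti-PD-1, the range was -0.30 to 0.59 for Il1b and -0.048 to 0.83 for Il1rn. For Comb against SFIH, the range was -0.76 to 0.069 for Il1rap and -0.17 to 0.47 for Il1rl1. For anti-PD-1 against none, the range was -0.25 to 0.16 for Il1rap. Among the ratios, the range was -0.66 to 0.31 for Il1rn to Il1a with anti-PD-1, -0.30 to 0.097 for Il1rn to Il1b with SFIH, -0.0695 to 0.21 for Il1r2 to Il1r1 with anti-PD-1, -0.17 to 0.064 for Il18bp to Il18 with anti-PD-1, -0.14 to 0.70 for Il1rl1 to Il33 with SFIH and -0.83 to 0.14 for Il1rn to Il1a with SFIH.

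The ratio of Il1rn to Il1a changed sign with 3 counts added (0.19 for anti-PD-1). The 3 tumors per group and a dispersion of 0.158 limit the precision of each fold change. Il1a, with 44 counts, was too shallow to compare.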
